A study of Mus musculus with 24 samples.

Results

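The genes described here encode the proteins of the cytosolic ribosome. They were taken from the deposited expression table as the rows with an Ensembl gene ID whose symbol is Rpl or Rps with its number, with an a, x or l and a final 1 where the symbol has them, together with Rplp0, Rplp1, Rplp2 and Rpsa. The rule gave 83 genes of 28450 features: 48 of the large subunit, 3 of its stalk and 32 of the small subunit. It used names and no measured value. The study profiled kidney RNA of C57BL/6 mice in 24 libraries, 6 in each of 4 groups. The groups were wild type given saline, wild type given glyoxylate (Gly), Nlrp3 knockout given saline and Nlrp3 knockout given Gly. The labels spell the knocked-out gene NLPR3. Every mouse was injected in the peritoneum with 200 µl a day from day 1 to day 7, the Gly dose was 75 mg/kg a day, and kidneys were collected at euthanasia when the 7 days were over. Gly is turned into oxalate in the body and is used to make calcium oxalate crystals form in the mouse kidney. The labels give no age or sex, and do not say how the knockout was made or in which cells it acts. They name separate samples without saying more of their source, so a p-value here stands against the spread among those samples.

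The cytosolic ribosome translates messenger RNA into protein, with the small subunit reading the messenger and the large subunit joining the amino acids. Its proteins are for the most part needed in equal numbers, and their messengers are among the most abundant in a cell. Most of these messengers begin with a 5′ terminal oligopyrimidine (TOP) tract, a C followed by a run of C and T (U in RNA), through which mTORC1 signalling controls their translation, while Myc and other growth signals raise the output of ribosome assembly as a whole. In the kidney, tubule cells that re-enter growth after injury and immune cells that enter the tissue both make ribosomes. In whole kidney RNA, a change in the number of cells of a type and a change in the RNA per cell cannot be told apart.

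The transcription start sites of a few of these genes are shown because a C/T run at the start is the sequence feature that the group is known for. Each window holds 10 bases before and 20 bases from an annotated start, on the strand of the gene, from RefSeq's promoter table for GRCm38.p6. Capitals mark the longest run that begins with C, is followed by at least 4 C or T, and begins within 5 bases of the start. Where a gene had several start sites, the site with the longest such run was shown. The windows were thus picked for the feature they show and do not stand for all start sites. Rps27, at chr3:90213629-90213658 on the minus strand, and Rpl12, at chr2:32961702-32961731 on the plus strand, were among the genes with the largest log2 rises in the wild type. Rpl38, at chr11:114668570-114668599 on the plus strand, and Rpl39, at chrX:37085203-37085232 on the minus strand, were among those lowest in the knockout under Gly. Rps18, at chr17:33955646-33955675 on the minus strand, is often used as a reference gene. Rpl35a, at chr16:33056472-33056501 on the plus strand, rose less than most. Rps27l, at chr9:66946076-66946105 on the plus strand, Rpl22l1, at chr3:28805498-28805527 on the plus strand, Rpl7l1, at chr17:46782637-46782666 on the minus strand, and Rpl3l, at chr17:24727816-24727845 on the plus strand, are second copies of other ribosomal protein genes.
Rps27: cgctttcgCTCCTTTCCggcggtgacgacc
Rpl12: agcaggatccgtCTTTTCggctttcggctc
Rpl38: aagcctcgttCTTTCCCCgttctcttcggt
Rpl39: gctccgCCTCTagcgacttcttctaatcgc
Rps18: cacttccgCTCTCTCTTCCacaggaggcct
Rpl35a: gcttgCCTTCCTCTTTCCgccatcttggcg
Rps27l: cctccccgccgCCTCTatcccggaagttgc
Rpl22l1: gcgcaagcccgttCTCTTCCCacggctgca
Rpl7l1: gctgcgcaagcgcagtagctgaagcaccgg
Rpl3l: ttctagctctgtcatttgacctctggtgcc
No such run was found in the windows of Rpl7l1 and Rpl3l, and these windows say nothing about other start sites.

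The RefSeq table held promoters, from 250 bases before to 50 after the start, for 63 of the 83 genes. A C followed by at least 4 C or T stood exactly at a start in 13 of them, 20.6%, against 3.01% of the 27025 genes in the table. Within 5 bases on either side of the start, such a run began in 29, 46.0%, against 21.2% of all genes. The motif CCGGAAG, on either strand of the 300 bases, occurred in 41.3% of the ribosomal protein genes and in 9.93% of all genes. TATAAA, also on either strand, occurred in 11.1% and 15.7%. These are matches of letters, not shown sites.

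Values are FPKM (fragments in proportion to transcript length and to all mapped fragments) as the authors deposited them. They hold no counts, so the depth of each library is unknown. Summed FPKM lay between 439749 and 539018 per library. Nlrp3 was under 1 FPKM in all 24 libraries: its medians were 0.0705 in the saline wild type, 0.502 in the Gly wild type, 0.0988 in the saline knockout and 0.126 in the Gly knockout, so that it checks the knockout label under Gly only. Under saline, 5 of the 6 knockout libraries had the Y-linked gene Ddx3y under 1 FPKM, and no library of the other 3 groups did. Wild-type Gly library 1 stood apart from the other 23, and the counts of called ribosomal protein genes are given with and without it. Summed FPKM of 10 proximal tubule markers ran from 4312 to 5072 in the saline wild type, where the tissue label calls for them, and the 6 markers of T, B and NK cells did not exceed 1.85 FPKM in any library.

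In the kidneys of wild-type mice, ribosomal protein messengers took a small share of all FPKM under saline and a share about 2-fold larger under Gly. The share ran from 2.48% to 2.91%, with a median of 2.72%, in the saline wild type (2.70% ± 0.163, SD, n = 6). It ran from 5.12% to 9.49%, with a median of 5.35%, in the Gly wild type (6.09% ± 1.70). The lowest Gly library lay above the highest saline library, and the highest value belonged to library 1. Without that library the wild-type Gly share was 5.41% ± 0.402 (n = 5). In the knockout the share ran from 2.67% to 3.20% under saline, with a median of 2.97%, and from 3.86% to 4.97% under Gly, with a median of 4.23%. Its groups did not overlap either, and every Gly knockout library lay below every Gly wild-type library.

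**Figure D1:**
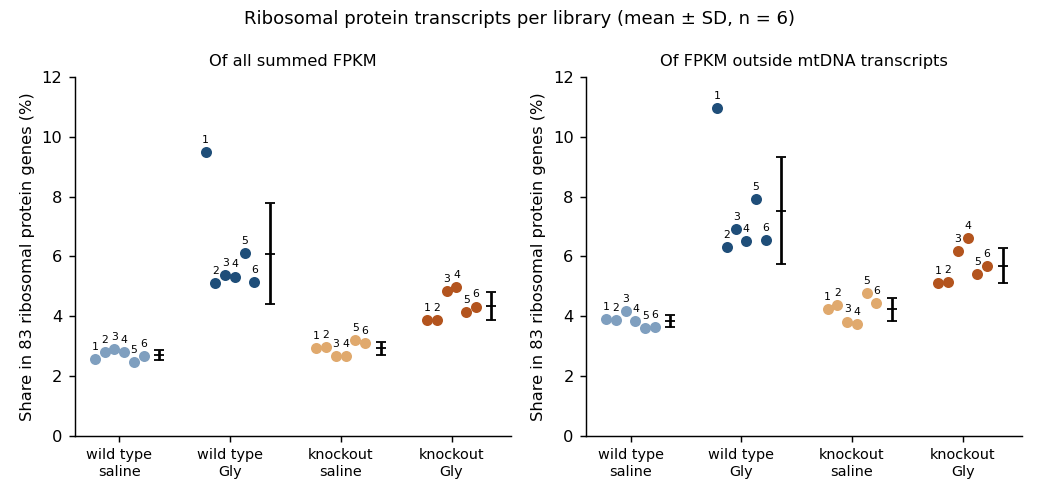
Share of FPKM in the 83 ribosomal protein genes, in percent on the vertical axis, for each of the 24 libraries (points, numbered by replicate) in the 4 groups, with the mean ± SD (n = 6) as a black bar beside the points. The left panel uses all FPKM and the right panel leaves out transcripts of mitochondrial DNA. The Gly libraries lie above the saline libraries of their genotype, and wild-type Gly library 1 lies at 9.49% on the left.

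Other features also differed between the saline and Gly groups. Transcripts of mitochondrial DNA took 26.9% to 34.3% of FPKM in the saline wild type and 13.5% to 23.0% in the Gly wild type. In the knockout they took 28.6% to 32.7% and 21.8% to 24.7%. Leaving them out of the total, the ribosomal protein share was 3.83% ± 0.202 in the saline wild type, 7.53% ± 1.78 in the Gly wild type, 4.23% ± 0.392 in the saline knockout and 5.69% ± 0.593 in the Gly knockout (SD, n = 6 each). The order of the groups was the same on both totals, but the highest Gly knockout value, 6.60%, then lay above the lowest Gly wild-type value, 6.32%. The summed FPKM of 12 macrophage and monocyte markers also rose, from 41.9 to 71.1 in the saline wild type to 298 to 835 in the Gly wild type, and from 43.8 to 90.2 in the saline knockout to 160 to 453 in the Gly knockout. Within the Gly wild type these measures did not run together in every library. Library 5 had the highest ribosomal protein share of all FPKM after library 1, 6.11%. It also had the highest mitochondrial share of that group, 23.0%, and the lowest macrophage marker sum, 298 FPKM. The part of macrophages and monocytes in the ribosomal protein share was not tested.

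In the saline wild-type kidney, the median ribosomal protein gene had 138 FPKM, against 6.48 FPKM for the median of the 13020 features tested. A feature was tested where at least 6 libraries had at least 1 FPKM, and 81 of the 83 genes passed. FPKM are scaled by length, so levels can be set beside each other. The highest means were those of Rplp0 (ENSMUSG00000067274), the scaffold protein of the stalk, at 423 ± 29.5 FPKM (SD, n = 6), and Rplp1, one of the acidic stalk proteins that bind elongation factors, at 373 ± 36.3. Rps2 followed at 352 ± 23.2, Rpl8 at 344 ± 18.8 and Rps15 at 343 ± 21.6. Rplp0 stood above Rplp1 by more than their SDs, and from Rplp1 to Rps15 neighbours in this order differed by less than their SDs.

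Levels were not equal, although most of the proteins are needed in equal numbers. Of the 81 tested genes, 58 lay within 2-fold of their median and 61 lay above 100 FPKM. The 5 lowest means belonged to Rpl7l1 at 20.9 ± 0.891 FPKM, Rps15a at 20.8 ± 1.16, Rpl21 at 17.1 ± 2.14, Rpl22l1 at 14.8 ± 1.89 and Rpl3l at 2.03 ± 0.367. Rpl7l1, Rpl22l1 and Rpl3l are second copies, while Rps15a and Rpl21 encode core proteins of the ribosome. Ribosomal protein genes have many pseudogenes of near-identical sequence, 7 of which have rows of their own in the table, and the treatment of reads that match several copies is not stated. The level of any single gene is uncertain for that reason.

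Second copies ranged from undetected to common. Rpl10l, a testis copy of Rpl10, was listed at 0 in all 24 libraries. Rpl39l, a testis copy of Rpl39, was above 0 in 2 libraries and below 1 FPKM in both. These were the 2 genes not tested. Rpl3l, the copy of Rpl3 used by heart and skeletal muscle, stayed between 0.424 and 2.36 FPKM in all libraries. Rps27l, the copy of Rps27 known as a target of p53, had a saline wild-type median of 105 FPKM, near the 125 FPKM of Rps27 itself.

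Under Gly, nearly every ribosomal protein gene rose in the wild-type kidney. Of the 81 tested, 80 were called higher and 1 lower, where a call is a Benjamini-Hochberg adjusted p under 0.05 in limma over all features tested. Among all features, 50.2% were called higher and 13.3% lower. The median log2 difference was 1.06, with a range from -0.62 to 1.75, and that of all tested features was 0.26. In 78 genes every Gly library lay above every saline library, which was so for 31.3% of all features. The 3 others were Rpl17, Rps29 and Rpl3l. On the linear scale, the Gly mean, with library 1 in it, was at least 2-fold the saline mean in 63 genes, and the median ratio was 2.19. These 2 values were not computed over all features.

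**Figure D2:**
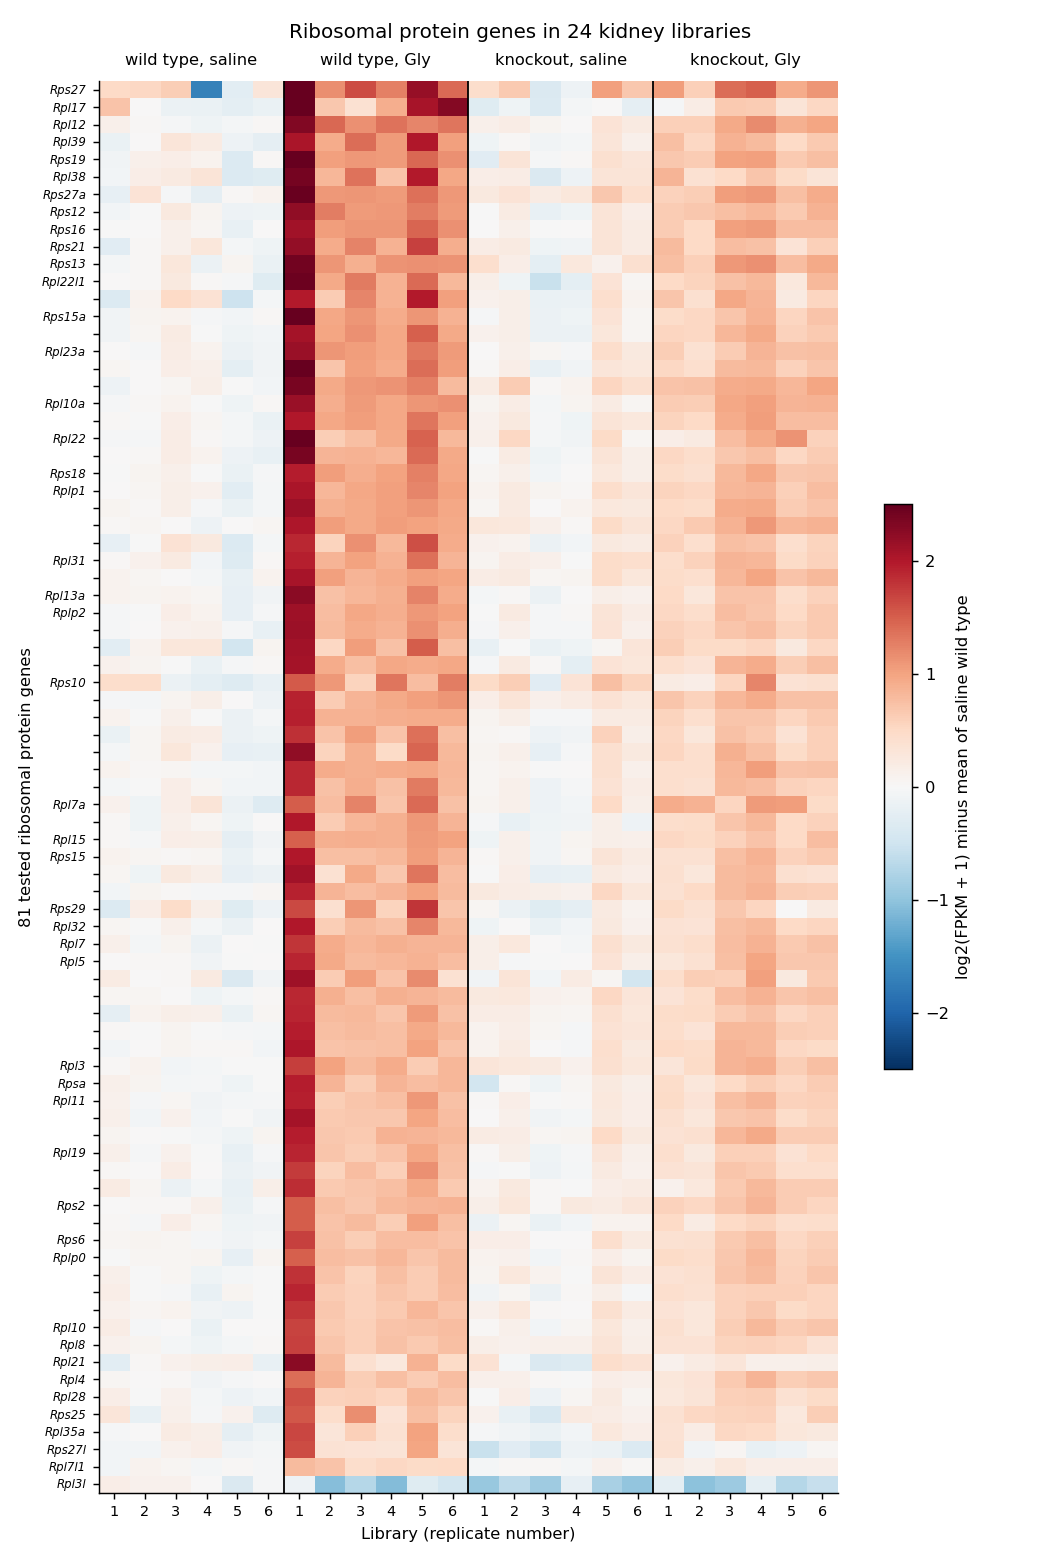
log2(FPKM + 1) minus the mean of the saline wild type (colour, with values beyond the ends of the scale shown at its ends) for the 81 tested ribosomal protein genes (rows, by their wild-type log2 difference, with some named) in the 24 libraries (columns, 6 a group). Red fills the wild-type Gly columns, is deepest in library 1 and is paler in the Gly knockout, while Rpl3l at the bottom is blue.

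Wild-type Gly library 1 held the highest value of all 24 libraries in 78 of the 81 genes, against 27.6% of all tested features. Its value was 1.23 to 4.81 times the median of the other 5 wild-type Gly libraries, with a median over genes of 2.15. This library also had the lowest mitochondrial share, 13.5%, and the highest macrophage marker sum, 835 FPKM. Without it the same 80 genes were called higher in the wild type, beside 53.2% of all features. The median log2 difference of the 81 genes was then 0.91. The direction of the change was the same without this library, and its size was smaller.

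The stalk proteins sit on the large subunit and recruit the factors that drive each elongation step. Rplp0 ran from 366 to 442 FPKM (median 436) in the saline wild type and from 680 to 1187 (median 725) in the Gly wild type. In the knockout it ran from 404 to 477 (median 446) under saline and from 576 to 751 (median 637) under Gly. The saline and Gly libraries did not overlap in either genotype, and the Gly groups of the 2 genotypes did. The log2 difference under Gly was 0.88 ± 0.11 (SE) in the wild type (limma adjusted p = 1.2e-07) and 0.53 ± 0.11 in the knockout (adjusted p = 0.00047). Rplp1 rose by 1.18 and Rplp2 by 1.14 on the log2 scale in the wild type, and by 0.49 and 0.48 in the knockout. All 3 stalk genes were called in both genotypes.

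Of the 46 tested large subunit genes outside the stalk, 45 were called higher in the wild type, beside 50.2% of all features. The median log2 difference of the 46 was 1.02. Rpl12, which lies at the base of the stalk, ran from 75.5 to 89.2 FPKM (median 81.3) in the saline wild type and from 181 to 412 (median 210) in the Gly wild type. In the knockout it ran from 81.7 to 104 (median 90.8) under saline and from 123 to 186 (median 155) under Gly. Gly libraries lay above saline libraries in both genotypes. The log2 difference was 1.47 ± 0.14 in the wild type (limma adjusted p = 2.9e-09) and 0.71 ± 0.14 in the knockout (adjusted p = 0.00047). Rpl5 and Rpl11, which with 5S ribosomal RNA can bind Mdm2 and so steady p53, moved like the rest, with log2 differences of 1.02 and 0.97 in the wild type and 0.53 and 0.49 in the knockout.

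Rpl17 lies at the exit of the peptide tunnel. It ran from 33.8 to 66.1 FPKM (median 35.9) in the saline wild type and from 52.9 to 365 (median 124) in the Gly wild type. The Gly wild-type libraries fell far apart, with libraries 1, 5 and 6 at 365, 171 and 201 FPKM and libraries 2, 3 and 4 at 64.2, 52.9 and 76.0, and the lowest lay below the highest saline value. The log2 difference in the wild type was 1.58 ± 0.31 (limma adjusted p = 0.00012). In the knockout Rpl17 ran from 31.4 to 40.3 FPKM (median 35.9) under saline and from 39.5 to 63.5 (median 54.0) under Gly, a log2 difference of 0.55 ± 0.31 that was not called (adjusted p = 0.20).

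All 32 small subunit genes were called higher in the wild type, beside 50.2% of all features, with a median log2 difference of 1.12. Rps27, whose protein holds a zinc finger, had the largest, 1.75 ± 0.33 (limma adjusted p = 6.9e-05). It ran from 28.7 to 145 FPKM (median 125) in the saline wild type and from 213 to 676 (median 274) in the Gly wild type. These groups did not overlap, but saline library 4 stood at 28.7 FPKM and library 5 at 78.6, below the other saline libraries. In the knockout Rps27 ran from 73.0 to 192 (median 139) under saline and from 144 to 269 (median 200) under Gly, with overlap and no call (log2 difference 0.71, adjusted p = 0.11).

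Rps18 showed the more usual pattern, from 210 to 258 FPKM (median 234) in the saline wild type to 445 to 921 (median 481) in the Gly wild type. In the knockout it went from 226 to 283 (median 251) under saline to 310 to 461 (median 381) under Gly. No Gly library overlapped the saline libraries of its genotype. Its log2 differences were 1.19 ± 0.13 and 0.58 ± 0.13 (limma adjusted p = 3.6e-08 and 0.0019). Rps6, whose protein is phosphorylated downstream of mTORC1, was called higher by 0.88 in the wild type and 0.38 in the knockout. Rpsa, which doubles as a laminin receptor, was called higher by 0.98 and 0.52. Rps27a, made as a fusion with ubiquitin, was called higher by 1.36 and 0.47.

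The sums of both subunits rose under Gly. The summed FPKM of the large subunit with the stalk was 1.48 to 1.57 times that of the small subunit in the saline wild type, 1.41 to 1.49 times in the Gly wild type, 1.44 to 1.54 times in the saline knockout and 1.43 to 1.49 times in the Gly knockout. These ranges overlapped, while the sums of both subunits did not overlap between saline and Gly in either genotype. The mean ratio was lower under Gly in the wild type, 1.525 ± 0.0294 under saline and 1.455 ± 0.0288 under Gly (SD, n = 6 each). In the knockout it was 1.481 ± 0.0343 and 1.464 ± 0.0231. The ratio was not tested.

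The second copies did not all follow the genes they are named after. Rpl3l ran from 1.34 to 2.36 FPKM (median 2.14) in the saline wild type and from 0.424 to 1.74 (median 1.02) in the Gly wild type. It was the only tested gene called lower in the wild type, with a log2 difference of -0.62 ± 0.17 (limma adjusted p = 0.0026), while Rpl3 went from 211 to 236 FPKM (median 219) to 343 to 731 (median 405), a log2 difference of 0.98 ± 0.13 (adjusted p = 5.3e-07). The Rpl3l groups overlapped and those of Rpl3 did not. Rpl3l lay near the 1 FPKM that was added before taking logs.

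Rpl7l1 ran from 19.9 to 22.2 FPKM (median 20.9) in the saline wild type and from 28.7 to 36.9 (median 30.1) in the Gly wild type, without overlap. Its log2 difference of 0.57 ± 0.06 (limma adjusted p = 1.8e-08) was among the smallest, and that of Rpl7 was 1.02 ± 0.13. Rps27l ran from 104 to 123 FPKM (median 105) and from 137 to 343 (median 141), also without overlap, with a log2 difference of 0.66 ± 0.17 (adjusted p = 0.0014). Rpl22l1 behaved otherwise: it ran from 11.7 to 17.7 FPKM (median 15.0) and from 26.4 to 85.4 (median 33.4), a log2 difference of 1.30 ± 0.20 beside 1.21 ± 0.24 for Rpl22.

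**Figure D3:**
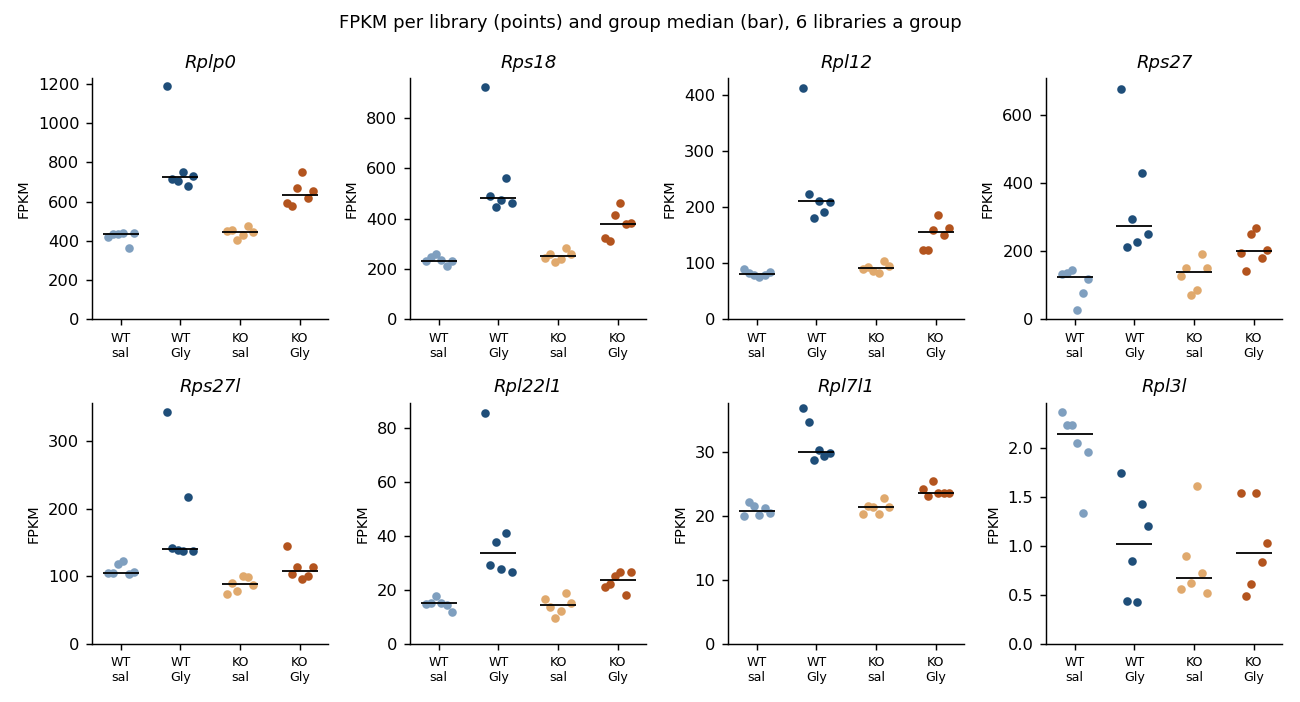
FPKM per library (points, linear axes from 0) and group median (bar) for 4 core genes (top row) and 4 second copies (bottom row) in the saline and Gly wild type (WT) and knockout (KO), 6 libraries a group. Wild-type Gly library 1 is the highest point in the 7 panels other than Rpl3l, where the saline wild type holds the highest values.

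How far single genes departed from the rest was tested after subtracting, in each library, the median log2 value of the 81 genes. In the wild type 22 of the 81 then differed between Gly and saline, 11 higher and 11 lower, beside 3.86% of all features higher and 80.3% lower. The same median was subtracted from every feature. The shares over all features in these tests, here and below, thus carry the shift of the ribosomal protein genes and are no baseline for the departures. Rps27 (0.67), Rpl17 (0.51), Rpl12 (0.40), Rpl39 (0.34), Rps19 (0.32), Rps27a (0.29), Rps12 (0.26) and Rps16 (0.25) were among those that rose more than the median gene. Rpl3l (-1.70), Rpl7l1 (-0.51), Rps27l (-0.41), Rpl35a (-0.34) and Rpl28 (-0.27) were among those that rose less or fell. Apart from Rpl3l and Rps27 these departures were at most 0.51 in size, beside the median rise of 1.06. Fitting the saline and Gly wild-type libraries alone left 11 such genes.

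In the knockout the ribosomal protein genes also rose under Gly, by less. Of the 81, 62 were called higher and none lower, beside 23.7% and 5.72% of all features, and 75 of the 81 had an unadjusted p under 0.05. All 62 were among the 80 called higher in the wild type. Without wild-type Gly library 1, which enters this comparison through the shared spread, 75 were called higher, beside 30% of all features. The median log2 difference was 0.49, against 0.12 over all features, and the values ran from 0.07 to 0.74. In 49 genes the Gly libraries all lay above the saline libraries, which was so for 15.5% of all features. By role, the calls were 32 of 46 large subunit genes, 3 of 3 stalk genes and 27 of 32 small subunit genes.

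The largest log2 differences in the knockout were those of Rpl10a (0.74), Rpl7a (0.71), Rps27 (0.71), Rpl12 (0.71) and Rps13 (0.70), of which Rps27 was not called. Rpl10a, a protein of the L1 stalk, ran from 193 to 231 FPKM (median 210) under saline and from 305 to 408 (median 363) under Gly in the knockout, without overlap. The smallest were those of Rps10 (0.07), Rpl21 (0.10), Rpl3l (0.13), Rpl7l1 (0.16) and Rpl8 (0.29). Rpl21 ran from 13.1 to 23.4 FPKM (median 19.2) under saline and from 18.4 to 21.3 (median 18.9) under Gly, so its groups overlapped fully. Against the median gene, 3 departed in the knockout: Rpl10a (0.26) and Rps16 (0.21) upward and Rpl21 (-0.38) downward, beside 2.27% and 26.7% of all features.

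The knockout comparison has a limit that the wild-type comparison does not. Its saline group held the 5 libraries without Ddx3y, so that whatever differs between animals with and without Y-linked transcripts cannot be told apart from Gly in it. With those 5 left out, 1 saline knockout library remained, assumed to vary like the others. The median log2 difference was then 0.61, 80 of the 81 differences were above 0 and none was called, beside 4.62% of all features called higher. Under median-ratio scaling, which centres all features near 0, 14 genes were called higher in the knockout and the median difference was 0.34. The wild-type result was 77 called higher with a median of 0.75 under that scaling. The same scaling took the split over all features from 50.2% higher and 13.3% lower to 29.0% and 28.3% in the wild type, and from 23.7% and 5.72% to 12.4% and 11.9% in the knockout.

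**Figure D4:**
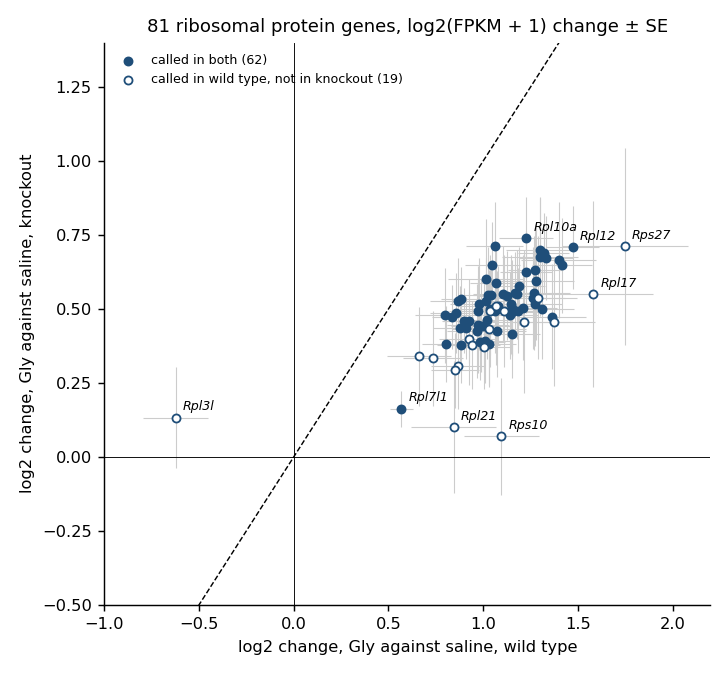
log2 difference of Gly against saline on the log2(FPKM + 1) scale, in the wild type (horizontal) and the knockout (vertical), for the 81 tested ribosomal protein genes, with SE bars; the dashed line marks equal differences. 80 of the 81 points lie below the line, 62 are filled because both differences were called, and Rpl3l lies alone at -0.62.

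Between the genotypes under Gly, 58 of the 81 genes were lower in the knockout and none was higher, beside 21.4% and 8.37% of all features. The median log2 difference was -0.46, against -0.06 over all features, with a range from -1.20 to 0.01. By role, 31 of 46 large subunit genes, 3 of 3 stalk genes and 24 of 32 small subunit genes were called lower. In 14 genes every Gly knockout library lay below every Gly wild-type library, which was so for 6.3% of all features. They included Rpl7l1, Rpl8, Rpl13a, Rpl15, Rpl19, Rpl23a, Rpl39, Rplp2, Rps12 and Rps21. All libraries of both groups expressed Ddx3y. This comparison shares its wild-type Gly libraries with the wild-type comparison above, and the values are set side by side only.

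Without wild-type Gly library 1, 49 genes were called lower in the knockout, all of them among the 58, beside 22.2% of all features. The median difference over the 81 genes went from -0.46 to -0.28, and their range was then -0.88 to 0.11. Rplp0 was one of the calls lost: its difference was -0.28 (limma adjusted p = 0.047) with library 1 and -0.16 (adjusted p = 0.082) without it. Under median-ratio scaling 23 genes were called lower, beside 15.4% of all features, with a median of -0.40. With the saline libraries left out of the fit, 14 were called lower, beside 11.6% of all features. The negative sign held in 80 of the 81 genes with and without library 1, and the number of calls differed between these fits.

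The largest genotype differences under Gly were those of Rpl17, Rpl38, Rpl39, Rpl22l1 and Rps21. Rpl38, a protein of the large subunit surface that is needed for patterning of the mouse skeleton, ran from 116 to 372 FPKM (median 160) in the Gly wild type and from 87.9 to 128 (median 99.0) in the Gly knockout. The groups overlapped, since libraries 2 and 4 of the wild type, at 127 and 116 FPKM, lay below the highest knockout value. The log2 difference was -0.84 ± 0.22 (limma adjusted p = 0.0053), and -0.63 (adjusted p = 0.011) without library 1. Rpl39, which lines the peptide tunnel, ran from 90.6 to 197 FPKM (median 112) in the wild type and from 66.2 to 86.6 (median 76.9) in the knockout, without overlap, with a difference of -0.74 ± 0.16 (adjusted p = 0.0014).

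For Rpl17 the log2 difference was -1.20 ± 0.31 (limma adjusted p = 0.0059), and -0.88 (adjusted p = 0.012) without library 1. Its wild-type libraries 2 and 3 lay at 64.2 and 52.9 FPKM, close to or inside the knockout range of 39.5 to 63.5 FPKM, and the other 4 lay above it. Rpl17 (-0.74) and Rpl38 (-0.38) were the 2 genes that departed downward from the median ribosomal protein gene in this comparison, beside 0.991% of all features. At the other end, Rpl3l differed by 0.01, and the smallest drops among the rest were those of Rpl7a (-0.24), Rps2 and Rpl4 (-0.27 each) and Rpl10 (-0.28).

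**Figure D5:**
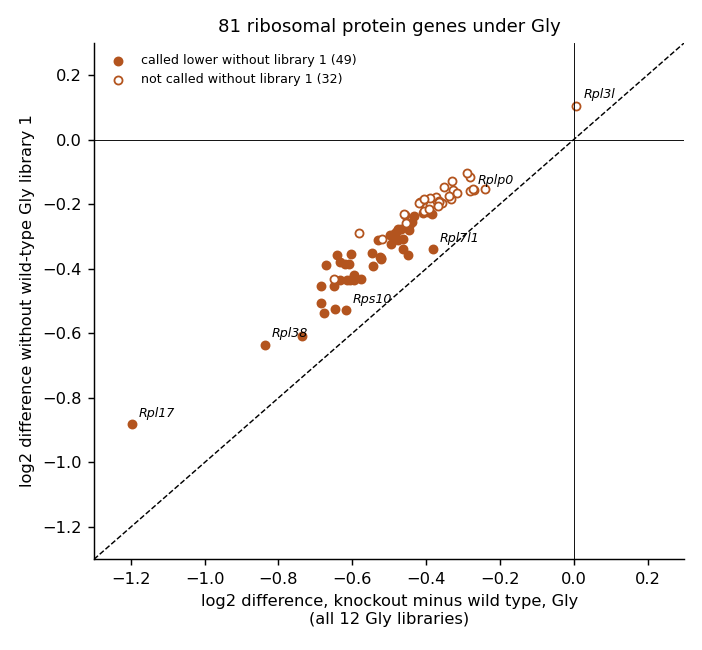
log2 difference of knockout minus wild type under Gly for the 81 tested genes, with all 12 Gly libraries (horizontal) and without wild-type Gly library 1 (vertical); the dashed line marks equal values. Points lie above the line, so that all but Rpl3l are nearer to 0 without the library, and 49 filled points were still called lower.

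The interaction asks whether the response to Gly differed between the genotypes. It was called negative for 39 genes and positive for 1, beside 20.3% and 6.28% of all features, and 80 of the 81 values were below 0. The median was -0.58, against -0.16 over all features. The calls covered 20 of 46 large subunit genes, 2 of 3 stalk genes and 17 of 32 small subunit genes on the negative side. Without wild-type Gly library 1, 48 were called negative, 38 of them among the 39, beside 24.2% of all features, and the median was -0.40. Under median-ratio scaling 2 were called negative, beside 10.9% of all features, with a median of -0.41. With the 5 saline knockout libraries without Ddx3y left out, 1 saline knockout library remained. The median was then -0.47, against -0.08 over all features.

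Rps10, a small subunit protein that is ubiquitinated on stalled ribosomes, had the largest called interaction, -1.03 ± 0.28 (limma adjusted p = 0.0093). It ran from 88.4 to 151 FPKM (median 98.2) in the saline wild type and from 162 to 322 (median 252) in the Gly wild type, but from 89.9 to 186 (median 158) in the saline knockout and from 124 to 257 (median 143) in the Gly knockout. The wild-type groups did not overlap and the knockout groups did. Wild-type saline libraries 1 and 2, at 151 and 149 FPKM, lay with most saline knockout libraries, and the other 4 lay below 100 FPKM.

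Rpl7l1 had the smallest p of the negative interactions (-0.41 ± 0.09, limma adjusted p = 0.0014). Its saline ranges were 19.9 to 22.2 FPKM in the wild type and 20.2 to 22.8 in the knockout, and its Gly ranges were 28.7 to 36.9 and 23.1 to 25.5. Neither Gly group overlapped any other group. Rpl3l was the 1 positive call (0.76 ± 0.24, adjusted p = 0.023), with its wild-type difference below 0 and its knockout difference, 0.13, not called.

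Under saline, few differences between the genotypes passed the test. Rpl3l was the 1 gene of 81 called, lower in the knockout, beside 3.67% of all features lower and 6.92% higher. It ran from 0.518 to 1.61 FPKM (median 0.671) in the saline knockout against 1.34 to 2.36 in the saline wild type, a log2 difference of -0.75 ± 0.17 (limma adjusted p = 0.0057), and only knockout library 4, at 1.61, overlapped the wild type. That library was the 1 saline knockout library with Ddx3y, so that Y-linked transcripts and genotype cannot be told apart in this difference. A fit without the other 5 left 1 library in that group and could not decide the call. The median log2 difference of the 81 genes was 0.10, against 0.08 over all features, and 2 genes had an unadjusted p under 0.05. Without wild-type Gly library 1, which here enters the shared spread alone, 8 genes were called higher and 2 lower in the knockout, beside 10% and 4.66% of all features. The 2 lower were Rpl3l (-0.75) and Rps27l (-0.33), and the 8 higher, among them Rps27a (0.36) and Rps24 (0.32), differed by 0.20 to 0.36. Rpl3, Rpl8, Rps3 and Rps3a1 lay above the wild type in every knockout library and Rps27l lay below, beside 3.94% and 0.868% of all features. None of these 5 was called with all libraries in the fit.

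Several of these genes serve as reference genes in quantitative PCR. Rplp0, Rpl13a, Rps18, Rpl19 and Rpl32 were all called higher under Gly in the wild type, with log2 differences of 0.88, 1.14, 1.19, 0.94 and 1.03. In the knockout the differences were 0.53, 0.52, 0.58, 0.38 and 0.55, and all but Rpl19 (limma adjusted p = 0.059) were called. Under Gly all 5 were called lower in the knockout than in the wild type, with differences of -0.28, -0.61, -0.52, -0.49 and -0.48, and without library 1 the call for Rplp0 was lost. Rpl13a, for example, ran from 269 to 328 FPKM (median 322) in the saline wild type, from 511 to 1479 (median 579) in the Gly wild type, and from 375 to 506 (median 447) in the Gly knockout. Its Gly groups did not overlap each other or the saline wild type.

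In the wild type, the group rose more under Gly than other features at each transcript length. Among tested features with transcripts under 1000 bases, the median wild-type log2 difference was 1.07 for 34 ribosomal protein genes and 0.41 for 521 others. Between 1000 and 2000 bases it was 1.04 for 33 and 0.40 for 2073 others, and between 2000 and 4000 bases 1.05 for 12 and 0.30 for 5119 others. For knockout against wild type under Gly, the medians of the other features changed with length. Under 1000 bases the median was -0.49 for ribosomal protein genes and -0.27 for others. It was -0.44 and -0.19 between 1000 and 2000 bases, and -0.42 and -0.09 between 2000 and 4000. From 4000 bases on it was -0.52 for 2 genes and 0.01 for others. The short features outside the group fell in their share of all FPKM, from 25.4% ± 1.52 in the saline wild type to 19.4% ± 2.24 in the Gly wild type (SD, n = 6). Transcripts of mitochondrial DNA were not taken out of that sum, and their own share fell from 29.6% ± 2.84 to 19.5% ± 3.44. Their part in the fall was not tested.

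Ribosome components that the naming rule leaves out behaved alike in direction. Rack1, a scaffold protein on the small subunit, Fau, which encodes a ribosomal protein fused to a ubiquitin-like protein, and Rpl36al were called higher in the wild type, by 1.04, 0.85 and 0.70 on the log2 scale. Rack1 (0.59) and Rpl36al (0.44) were also called in the knockout, and Fau (0.39, limma adjusted p = 0.084) was not. Under Gly, Rpl36al (-0.53) and Rack1 (-0.33) were lower in the knockout.

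The lists of other genes of the translation pathway had smaller medians than the ribosomal protein genes in the wild type, though single genes exceeded the ribosomal median of 1.06, and the difference between lists was not tested. Of 17 tested elongation factors and other genes known for a TOP tract, 15 were called higher in the wild type (median log2 difference 0.75) and 11 in the knockout (0.38), and 8 were lower in the knockout under Gly. They included Hnrnpa1, an RNA-binding protein (1.12 in the wild type), Npm1, a nucleolar chaperone (1.17), Eef1g, an elongation factor subunit (0.89), and Pabpc1, the poly(A)-binding protein (0.65). Of 33 initiation factors, 27 were called higher and 2 lower in the wild type (median 0.53), with Eif1a at 1.52, Eif6 at 1.50, Eif4a1 at 1.05 and Eif3c at 0.57. In the knockout 16 of the 33 were higher and 1 lower, and 21 were lower and 2 higher in the knockout under Gly. Over all features, 50.2% were called higher and 13.3% lower in the wild type, and 23.7% and 5.72% in the knockout. Between the genotypes under Gly, 21.4% of all features were lower and 8.37% higher in the knockout.

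Ribosome biogenesis genes, which make and process ribosomal RNA, were called higher in 43 of 44 cases in the wild type (median 0.67), beside 50.2% of all features. In the knockout 28 were higher (0.29), beside 23.7%, and 39 were lower in the knockout under Gly, beside 21.4%. Examples are Nop58 (1.42 in the wild type) and Nop56 (1.18), core proteins of the box C/D particles, Nop2 (0.97) and Grwd1 (1.14). Without wild-type Gly library 1 these counts were 42, 34 and 37, beside 53.2%, 30% and 22.2% of all features. Of 20 genes of mTORC1 and Myc regulation, 9 were higher and 2 lower in the wild type, with a median of 0.21, beside 50.2% higher and a median of 0.26 over all features; the 2 lower stood beside 13.3%. In the knockout 4 of the 20 were higher and 1 lower (median 0.10), beside 23.7% and 5.72% of all features. Between the genotypes under Gly, 2 were higher and 6 lower in the knockout (median 0.0024), beside 8.37% and 21.4%. Within this list, Myc had log2 differences of 2.36 in the wild type, 1.19 in the knockout and -1.12 between the genotypes under Gly. Eif4ebp1, an inhibitor of initiation that mTORC1 switches off, had differences of 1.70, 0.82 and -0.60. All 6 of these were called.

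The ribosomal proteins of mitochondria, encoded in the nucleus, had a smaller median than the cytosolic ones. Of 78, 47 were called higher in the wild type with a median log2 difference of 0.31, beside 50.2% and 0.26 for all features. In the knockout 3 were higher, beside 23.7% of all features. Their wild-type calls turned with the scaling: under median-ratio scaling 7 were higher and 11 lower, beside 29% and 28.3% of all features. Of 73 nuclear genes of oxidative phosphorylation, 8 were higher and 12 lower in the wild type, beside 50.2% and 13.3% of all features. Their median log2 difference was 0.14, against 0.26 over all features. Without library 1 these counts were 5 and 21, beside 53.2% and 13.5%. Sdha (-0.54) and Ndufs1 (-0.60) were among the lower ones.

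Cell type markers moved strongly in the same comparisons. Over all features, 50.2% were called higher and 13.3% lower in the wild type, and 23.7% and 5.72% in the knockout. Under Gly, 21.4% of all features were lower and 8.37% higher in the knockout. All 12 macrophage and monocyte markers were called higher in the wild type (median log2 difference 2.77), 11 in the knockout (1.50), and all 12 were lower in the knockout under Gly (-1.06). C1qc, a complement subunit made by macrophages, rose by 3.33 and 1.77, and Cd68, a lysosomal protein of macrophages, by 2.63 and 1.65. All 6 genes of cycling cells, such as Mki67 and Top2a, were called higher in the wild type (2.12) and the knockout (1.57), and 4 of the 6 were lower in the knockout under Gly (-0.48), or 2 without wild-type Gly library 1. Of 10 proximal tubule markers 8 were lower in the wild type (-0.93) and 3 in the knockout (-0.29), and 7 were higher in the knockout under Gly (0.77). Slc34a1, the phosphate transporter of the proximal tubule, fell by 1.14 in the wild type, and Slc22a8, an anion transporter, fell by 1.43. Of 8 markers of other nephron segments, 4 fell in each genotype. The part of these shifts in cell types in the ribosomal protein result was not tested.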

How the data were processed

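Kidney RNA of 24 mice was sequenced by the study's authors from TruSeq RNA libraries, per the labels' protocols. The deposited values are FPKM per gene and library. The submitters' processing notes name Bowtie 0.12.2 and the builds mm8 and mm9 with no role; what made the FPKM, on which annotation, and how strand and reads with several matches were handled was not given in the sources used here. Depth is unknown: at most 2.74% of features averaging under 0.05 FPKM shared 1 ratio between libraries (bins of 0.01 log2), so no reads were recovered and no depth-based interval was computed. No 2 libraries held identical values.

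Groups and replicate numbers came from the sample titles. Values were taken as log2(FPKM + 1), which understates changes of low genes, and tested with limma 3.58.1 (intensity trend) in R 4.3.3 on the 13020 features that reached 1 FPKM in 6 or more libraries, with a mean for each of the 4 groups, a shared spread and Benjamini-Hochberg adjustment over all features; calls have an adjusted p under 0.05, two-sided. The fit was tested on simulated data. Transcript lengths are the longest per gene in GENCODE M21; promoters are RefSeq's for GRCm38.p6, a build other than those named for the files, so they describe the genes and not the reads.

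The genes and lists were chosen with earlier results of these data known. Genes named with values are the 5 highest and 5 lowest in the saline wild type, the 5 largest and smallest differences of each comparison, the stalk genes and Rpsa, second copies and their parents, common reference genes, calls against the main direction, up to 10 interaction calls and up to 10 departures from the median gene by p, and up to 4 genes of each other list by p. Rpl5, Rpl11, Rps6, Rps12, Rps16, Rps29 and the genes named for groups that did or did not overlap were added for their roles or counts after their values were seen. Some genes are not reported here. A list of small nucleolar RNA host genes had 0 members in the table. Alternatives were other pseudocounts, filters, scalings, weights, libraries fitted, a replicate block and each library left out.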

Additional observations from a re-analysis of the deposited data

Results flagged for a closer look

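In groups of 6 libraries, a value was singled out where the gap between the highest or lowest library and its neighbour was, as a part of the group's range, above Dixon's critical value for 6 samples. Chance gives such a gap in about 1 in 20 groups. Over the 81 tested genes it was found in 58 in the Gly wild type, 4 in the saline wild type, 5 in the saline knockout and 2 in the Gly knockout. The share of all features with such a gap was not computed. Wild-type Gly library 1 held the highest value of all 24 libraries in 27.6% of all tested features. The genes of a group share the same 6 libraries, so these counts are not of separate events. Examples in the Gly wild type, each with the gap between library 1 and the rest, are 0.773 for the share of FPKM, 0.863 for Rplp0, 0.771 for Rplp1, 0.851 for Rplp2, 0.892 for Rpsa, 0.745 for Rpl3, 0.746 for Rpl22, 0.754 for Rpl22l1, 0.914 for Rpl7, 0.777 for Rpl13a, 0.754 for Rps18, 0.805 for Rpl19, 0.674 for Rpl32 and 0.816 for Rpl12. In the saline wild type, examples are 0.678 for Rplp0, with library 5 low, and 0.791 for Rpl17, with library 1 high. In the saline knockout, an example is 0.652 for Rpl3l, with library 4 high. In the Gly knockout the gaps were 0.639 for Rps27l, with library 1 high, and 0.732 for Rps10, with library 4 high.

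The response to Gly differed between the genotypes by limma's interaction test (log2, knockout minus wild type) for 40 of the 81 genes. Over all features, 20.3% were called negative and 6.28% positive. Among the 40 were Rps10 (-1.03), Rpl38 (-0.92), Rps27a (-0.89), Rps21 (-0.81), Rpl39 (-0.77), Rpl12 (-0.76), Rpl23a (-0.76), Rpl31 (-0.73), Rplp1 (-0.69), Rplp2 (-0.67), Rps18 (-0.61), Rpl3 (-0.59), Rpl7 (-0.56), Rpl15 (-0.49), Rpl7l1 (-0.41) and Rpl3l (0.76). All of these differences include the saline knockout libraries, 5 of which lacked Ddx3y.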

How the results depend on the processing

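The wild-type rise was the steadiest result: 77 to 80 genes were called higher under every setting tried, beside 28.2% to 61% of all features. In each of the 24 fits that left out 1 library, 80 were higher and 1 lower, beside 47.5% to 54.3% and 11.9% to 13.5%. No called difference of a named gene changed sign; the median under saline went from 0.10 to -0.0050 with median-ratio scaling and to -0.018 without the saline knockout libraries that lacked Ddx3y, and 2 of the 81 Gly differences in the knockout lay below 0 with median-ratio scaling and with quantile normalization. Under median-ratio scaling the median wild-type difference went to 0.75. The counts under it were 14 higher in the knockout (12.4% of all features), 23 lower in the knockout under Gly (15.4%) and 2 negative interactions (10.9%). Fitting only the libraries compared gave 14 lower in the knockout under Gly (11.6% of all features), 8 higher and 2 lower under saline (15.6% and 5.54%), and 11, 6 and 0 departures from the median gene (wild type, knockout and genotypes under Gly, in that order, also below). Array weights gave 19 higher and 2 lower under saline (32.4% and 10.3% of all features), 61 negative interactions (42.7%), and 16 and 4 departures in the knockout and between genotypes. Quantile normalization gave 8 higher under saline (4.94% of all features) and shares of 2.86% and 3.21% for the saline groups. Without mitochondrial transcripts in the total the shares were 3.83%, 4.23% and 5.69% (saline wild type, saline knockout, Gly knockout). With no filter 4 genes departed between genotypes, and a filter at 5 FPKM removed Rpl3l, leaving 0 lower in the wild type, 0 lower under saline and 0 positive interactions. Without the 5 saline knockout libraries that lacked Ddx3y, 1 saline knockout library remained, too few for calls that use that group. The medians were then 0.61 in the knockout, -0.018 under saline and -0.47 for the interaction. In that fit 14 genes departed from the median gene in the wild type and 1 between genotypes under Gly. Without wild-type Gly library 1 and without mitochondrial transcripts, a setting added after seeing the data, 9 were higher under saline (11.5% of all features) and 8 and 1 departed in the knockout and between genotypes. Leaving out 1 library at a time gave 42 to 75 higher in the knockout (19% to 30% of all features). It gave 39 to 70 lower in the knockout under Gly (18.1% to 26.2%) and 27 to 48 negative interactions (17.1% to 27%). Under saline it gave 0 to 8 higher (3.77% to 11%) and 1 to 2 lower (2.5% to 5.29%). Departures numbered 15 to 27, 0 to 8 and 0 to 4. The 8 higher and 2 lower under saline and the 8 departures came without wild-type Gly library 1; the 0 departures came without saline knockout library 6 or Gly knockout library 5 in the knockout and without wild-type Gly library 5 between genotypes. The cause of these shifts was not tested. The replicate numbers did not pair the libraries: deviations of same-numbered libraries correlated at -0.37 to 0.30, and 1 of 24 libraries correlated best with its own number. With the number as a replicate block, 80 were higher in the wild type (50% of all features) and 55 higher in the knockout (23%). In that fit 48 were lower in the knockout under Gly (20.4%) and 31 interactions were negative (19%). There, 14, 0 and 1 genes departed from the median gene. Over 97 pairs of a named gene and a comparison, 1236 alternative values kept their side of the threshold, 80 lost a call and 37 gained one. Limits: unknown depth, reads shared among copies and pseudogenes, whole tissue, 1 outlying library and saline knockout libraries that differ in Y-linked transcripts.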
